A study of Mus musculus with 10 samples.

Results

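The 10 MHC class II presentation genes described here were listed by symbol and located in whole-skin RNA sequencing counts through GENCODE M21. They were H2-Aa, H2-Ab1, H2-Eb1, H2-DMa, H2-DMb1, H2-DMb2, H2-Oa, H2-Ob, Cd74 and Ciita. All 10 members had reads in every library and passed the filter on low counts, among 18060 genes tested of 49671 gene IDs counted. The rule that lists them uses no measured value, though the members were chosen with earlier results of these data known. Skin poly(A) RNA came from 5 mutants homozygous for the Npy allele of strain B6;129S4-Npytm2Rpa/J (NPYtet, labelled 2 male and 3 female) and from 5 wildtype siblings (WT, labelled 3 male and 2 female). All mice were aged 22 weeks, with 1 library per mouse, and the labels name no added treatment. The study set the genotypes side by side.

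Class II molecules are pairs of an alpha and a beta chain that carry peptides from engulfed proteins to the cell surface, where CD4+ T cells read them. H2-Aa and H2-Ab1 encode the chains of the I-A molecule and H2-Eb1 the beta chain of I-E. Cd74 encodes the invariant chain, which fills the groove of new class II molecules and guides them to endosomes. There H2-DM, made by H2-DMa with H2-DMb1 or H2-DMb2, replaces the remnant of the invariant chain with peptide, and H2-DO, made by H2-Oa and H2-Ob, restrains H2-DM. Ciita encodes the transactivator that is assembled on class II promoters and that interferon gamma induces. In skin, Langerhans cells, dermal dendritic cells and macrophages are known to carry class II.

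Total counts ran from 23209405 to 53357695 reads. NPYtet replicate 5 and WT replicate 2 stood apart, with 19953 and 21144 genes with a read against 24710 to 26323 in the other 8 libraries, and mitochondrial genes took 9.27% of reads in NPYtet replicate 5 against 1.86% to 3.03% elsewhere. NPYtet replicate 1, labelled female, held 2 reads of the X-inactivation RNA Xist and 1513 reads of the Y-linked gene Ddx3y, which goes against its sex label. Npy itself ran from 96.2 to 485 CPM (read counts relative to TMM-scaled library sizes) in NPYtet and from 0.0941 to 2.86 CPM in WT. The TMM factor was 0.652 in NPYtet replicate 5 and 0.696 in WT replicate 2, against 0.898 to 1.205 in the other 8 libraries. A factor below 1 raises every CPM of its library.

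The promoters of class II genes are known for an X box, bound by RFX and CREB factors, and a Y box, an inverse CCAAT bound by NF-Y, at a set distance from each other. CIITA acts through these bound factors. The windows shown run from 150 to 31 bases before the RefSeq start (GRCm38.p6), and were chosen because they let the letters of members that moved together be read side by side. RefSeq promoters were matched for 7 of 10 members, with 2 entries for H2-DMa. Capitals mark ATGATG, letters of the X-box type that were picked after these promoters had been read, and ATTGG, the Y-box core, on the strand of the gene. The H2-Eb1 window lies at chr17:34305717-34305836 and that of H2-DMb1 at chr17:34153041-34153160. The H2-DMb2 window lies at chr17:34145099-34145218 and that of H2-Ob at chr17:34238755-34238874, all 4 on the forward strand. The H2-Aa window, on the reverse strand, lies at chr17:34287854-34287973, and the H2-Oa window at chr17:34092229-34092348 on the forward strand.
H2-Eb1: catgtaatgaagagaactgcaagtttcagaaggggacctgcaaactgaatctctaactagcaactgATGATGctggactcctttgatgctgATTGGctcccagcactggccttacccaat
H2-DMb1: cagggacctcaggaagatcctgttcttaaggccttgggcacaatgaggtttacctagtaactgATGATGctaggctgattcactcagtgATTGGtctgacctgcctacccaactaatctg
H2-DMb2: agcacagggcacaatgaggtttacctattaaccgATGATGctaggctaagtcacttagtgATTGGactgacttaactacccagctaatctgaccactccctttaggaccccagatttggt
H2-Ob: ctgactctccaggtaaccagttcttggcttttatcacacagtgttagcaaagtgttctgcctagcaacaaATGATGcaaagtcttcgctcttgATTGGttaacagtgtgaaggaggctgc
H2-Aa: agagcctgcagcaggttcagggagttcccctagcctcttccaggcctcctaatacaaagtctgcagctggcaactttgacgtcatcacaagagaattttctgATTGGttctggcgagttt
H2-Oa: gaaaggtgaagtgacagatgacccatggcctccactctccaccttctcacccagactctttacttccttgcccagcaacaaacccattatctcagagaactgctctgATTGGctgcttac
H2-Eb1, H2-DMb1, H2-DMb2 and H2-Ob held both motifs, with ATTGG starting 25, 26, 26 and 23 bases after the start of ATGATG. H2-Aa and H2-Oa held ATTGG and no ATGATG. Neither motif stood in the window of either H2-DMa entry. Those windows begin at 34122682 and 34125368, inside the annotated gene, which runs from 34119541 to 34139101. The H2-DMb2 window also lies wholly inside its annotated gene, which runs from 34143307 to 34151555. Which start gave the reads of H2-DMa or of H2-DMb2 was not tested. Over all 32851 RefSeq promoters of 300 bases, searched on both strands, ATGATG occurred in 3668 (11.2%) and ATTGG in 12289 (37.4%). The pair, with ATTGG 20 to 35 bases downstream on the same strand, occurred in 77 promoters (0.234%), 4 of them the members named. Since the first motif and the spacing were taken from these promoters, that share is a description. The 2 motifs cannot overlap at this spacing.

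All members other than Cd74, on chromosome 18, and Ciita, on chromosome 16, lie on chromosome 17 in the MHC, between 34092340 (the start of H2-Oa) and 34316674 (the end of H2-Eb1) on GRCm38. Per length of annotated exon (RPKM, from the same scaled library sizes), Cd74 was the most abundant member at a mean of 586 over the 10 libraries. H2-Eb1 at 271, H2-Ab1 at 248 and H2-Aa at 160 followed. H2-DMb1 stood at 26.9, H2-DMa at 18.0, H2-DMb2 at 5.18, Ciita at 1.81, H2-Ob at 0.684 and H2-Oa at 0.650. Each neighbour in this order was above the next in 10 of 10 libraries, except that H2-Eb1 exceeded H2-Ab1 in 8 and H2-Ob exceeded H2-Oa in 7. The spread of those 2 neighbouring pairs therefore overlapped within libraries. The length counts all annotated exons of a gene and is the same divisor in every library. Agreement between libraries therefore does not test that divisor. By CPM, which is not divided by length, H2-Aa (760 in NPYtet, 456 in WT) averaged above H2-Eb1 (621 and 433). Among libraries, the highest level of a member exceeded its lowest by 4.39-fold (Ciita) to 10.1-fold (H2-Oa).

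**Figure D1:**
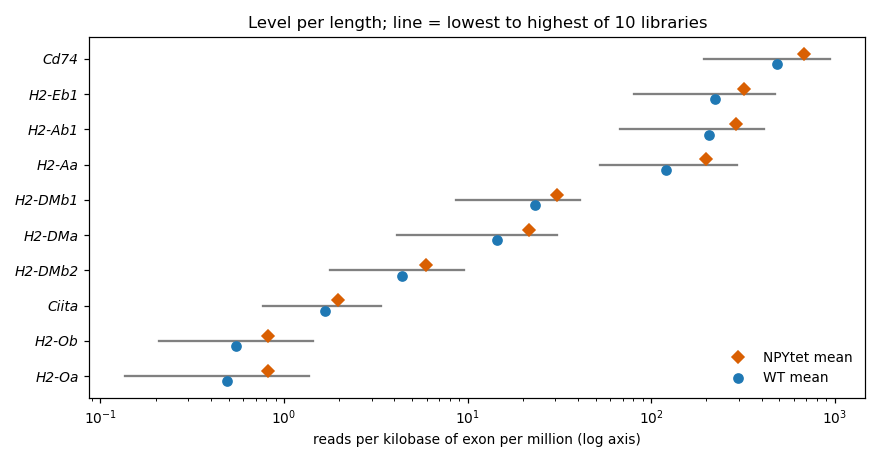
Level of each class II member in RPKM, per kilobase of annotated exon (log axis), with NPYtet means as diamonds, WT means as circles and a line from the lowest to the highest of 10 libraries. Cd74 lies highest at 586 on average and H2-Oa lowest at 0.650.

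Reads of H2-DMb1 and H2-DMb2 could be split between these copies: of all 75-base windows of their transcripts, 254 were identical, 15.8% of the windows of H2-DMb1 and 14.6% of those of H2-DMb2. No other pair of members shared a window. H2-DMa shares 360 exon bases with Brd2, Ciita 329 with Dexi and H2-Oa 321 with BC051537, each on the opposite strand. BC051537 had 4 reads over all libraries. No source used here gives the strand setting of the counts, so reads in those bases cannot be assigned with certainty.

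The genes for the I-A and I-E chains averaged higher in NPYtet, their libraries overlapped with those of WT, and none passed the test. H2-Aa, the I-A alpha chain, was at 1121, 294, 865, 654 and 865 CPM in NPYtet replicates 1 to 5 and at 375, 359, 810, 199 and 536 CPM in WT replicates 1 to 5. H2-Ab1, the I-A beta chain, was at 1061, 312, 780, 566 and 1003 CPM in NPYtet and at 366, 694, 809, 173 and 612 CPM in WT. H2-Eb1 was at 920, 276, 746, 532 and 631 CPM in NPYtet and at 314, 452, 714, 156 and 529 CPM in WT. In all 3 genes NPYtet replicate 1 was the highest library and WT replicate 4 the lowest, and the groups overlapped, with WT replicate 3 among the 4 highest and NPYtet replicate 2 among the low ones. Averages were 760 ± 308 CPM in NPYtet and 456 ± 231 CPM in WT for H2-Aa (SD, n = 5 each). They were 744 ± 311 CPM in NPYtet and 531 ± 258 CPM in WT for H2-Ab1, and 621 ± 241 CPM in NPYtet and 433 ± 212 CPM in WT for H2-Eb1. In whole skin, a difference in the number of cells of a type and a difference in RNA per cell cannot be told apart, here and for every member.

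The log2 fold change (NPYtet minus WT) was 0.62 for H2-Aa (SE 0.40, 95% interval -0.23 to 1.47), 0.43 for H2-Ab1 (SE 0.45, -0.52 to 1.39) and 0.38 for H2-Eb1 (SE 0.41, -0.49 to 1.26). The edgeR adjusted p was 0.9995 for each. With single libraries left out, the H2-Aa value ran from 0.27 (without NPYtet replicate 5) to 0.88 (without WT replicate 3), that of H2-Ab1 from 0.074 to 0.68 and that of H2-Eb1 from 0.17 to 0.61. H2-Ea-ps, the alpha partner of H2-Eb1, is known to be silent in the B6 background and had 0 reads in all 10 libraries. H2-Eb2, another beta chain gene, was at most at 1.05 CPM (NPYtet replicate 2).

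**Figure D2:**
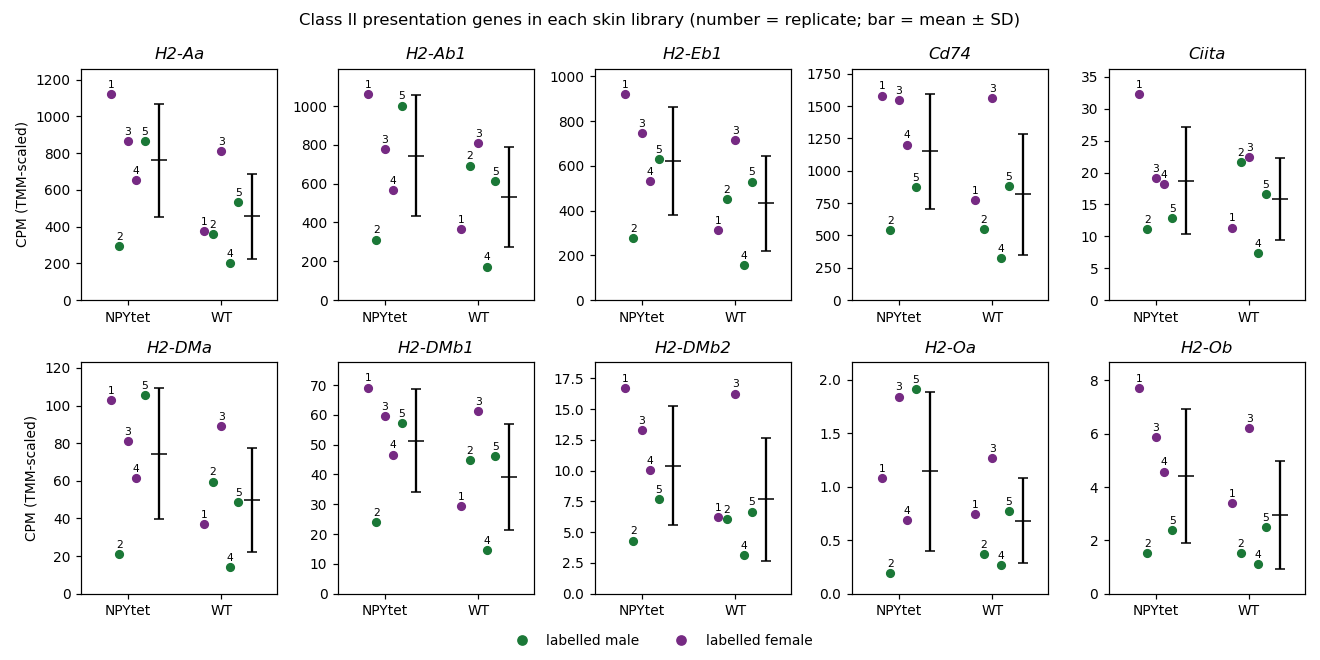
CPM of the 10 class II members in each library (number: replicate; green: labelled male, purple: labelled female), with the mean and SD of 5 libraries as bars, NPYtet left of WT. The groups overlap in every panel, and H2-Ob separates the sexes as labelled, at 1.81 CPM on average in males and 5.55 CPM in females, where the highest, NPYtet replicate 1 at 7.70 CPM, is labelled female against its Xist and Ddx3y reads.

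Cd74, the invariant chain, was at 1581, 543, 1546, 1202 and 876 CPM in NPYtet and at 770, 552, 1563, 326 and 883 CPM in WT. It averaged 1150 ± 444 CPM in NPYtet and 819 ± 468 CPM in WT (SD, n = 5 each), with a log2 fold change of 0.29 (SE 0.36, 95% interval -0.48 to 1.06, and 0.12 to 0.51 with single libraries left out). WT replicate 3 was within the range of the highest NPYtet libraries, and NPYtet replicate 2 lay below WT replicates 1, 2, 3 and 5. Ciita, the transactivator, was at 32.4, 11.2, 19.2, 18.1 and 12.8 CPM in NPYtet and at 11.4, 21.6, 22.4, 7.37 and 16.6 CPM in WT. Its log2 fold change was the smallest of the members, at 0.07 (SE 0.38, -0.74 to 0.87). Outside NPYtet replicate 1, every NPYtet library lay within the WT range of Ciita.

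The peptide exchange genes had the same overlap. H2-DMa was at 103, 21.3, 81.2, 61.6 and 105 CPM in NPYtet and at 37.2, 59.6, 88.9, 14.2 and 48.8 CPM in WT, with a log2 fold change of 0.50 (SE 0.46, 95% interval -0.48 to 1.49). H2-DMb1 averaged 51.4 ± 17.3 CPM in NPYtet and 39.2 ± 17.8 CPM in WT, at 0.29 (SE 0.38). H2-DMb2 averaged 10.4 ± 4.82 CPM in NPYtet and 7.68 ± 5.01 CPM in WT, at 0.21 (SE 0.37). Their lowest library was WT replicate 4. The highest was NPYtet replicate 1 for both beta genes and NPYtet replicate 5 for H2-DMa. The place of NPYtet replicate 5 depends on its TMM factor of 0.652, which raises its CPM.

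The H2-DO genes had the lowest levels per length of the members. H2-Ob was at 7.70, 1.53, 5.86, 4.58 and 2.38 CPM in NPYtet and at 3.41, 1.53, 6.21, 1.13 and 2.49 CPM in WT, with a log2 fold change of 0.26 (SE 0.38). H2-Oa rested on 6 to 80 reads per library, and averaged 1.15 ± 0.74 CPM in NPYtet and 0.685 ± 0.397 CPM in WT, at 0.66 (SE 0.59, 95% interval -0.60 to 1.91). The H2-Oa interval was the widest of the members.

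Of the 10 members, 0 passed the edgeR adjusted threshold of 0.05 between the genotypes, where 0.00554% of all genes passed, and 0 had an unadjusted p under 0.05, where 3.59% did. DESeq2 and limma voom with quality weights called 0 members as well. No member's groups were free of overlap (0.305% of all genes). The log2 fold change was above 0 for 10 of 10 members, with a median of 0.34, beside 48.8% of all genes and a median of -0.0099 over them. With single libraries left out, that median was 0.12 without NPYtet replicate 5 and 0.15 without WT replicate 1 (8 of 10 above 0 in each), 0.19 without WT replicate 4 (9 of 10), and 0.55 without NPYtet replicate 2 and 0.56 without WT replicate 3 (10 of 10 in each). The members moved together across libraries, so 10 signs are not 10 separate observations. Under voom, which gave NPYtet replicate 5 and WT replicate 2 the lowest weights (0.165 and 0.207), 1 of 10 members was above 0 and the median was -0.070. Without NPYtet replicates 1 and 5 and WT replicate 2, 7 of 10 were above 0 and the median was 0.014.

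**Figure D3:**
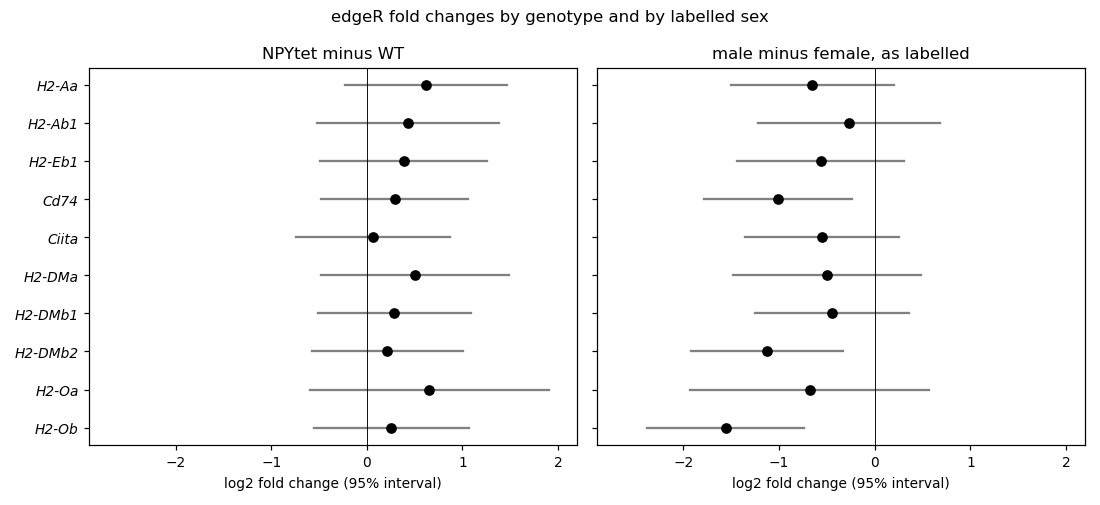
edgeR log2 fold changes of the class II members with 95% intervals, for NPYtet minus WT (left) and for labelled male minus female (right). Every genotype interval crosses 0, and the sex intervals of Cd74, H2-DMb2 and H2-Ob lie below 0.

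The members varied together from mouse to mouse. NPYtet replicates 1 and 3 and WT replicate 3 were among the 4 highest libraries for 10 of 10 members, NPYtet replicate 5 for 6, NPYtet replicate 4 for 3 and WT replicate 2 for 1. The ranks of NPYtet replicate 5 and WT replicate 2 depend on their TMM factors of 0.652 and 0.696. WT replicate 4 was the lowest library for 9 members and NPYtet replicate 2 for H2-Oa. Summed over the members, NPYtet replicates 1 to 5 had 4913, 1489, 4118, 3096 and 3563 CPM, and WT replicates 1 to 5 had 1914, 2190, 4092, 895 and 2681 CPM. Over the 45 pairs of members, Pearson's r of log2 CPM over 10 libraries ran from 0.48 (Ciita with H2-Oa) to 0.99 (H2-DMb1 with H2-Eb1), with a median of 0.87. These correlations share the libraries and their scaling.

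Against Cd74, Pearson's r was highest for H2-DMb2 (0.97), H2-Ob (0.96), H2-Aa (0.93) and H2-Eb1 (0.91). Spearman's rho was 0.99, 0.96, 0.87 and 0.94 for these 4 genes. For H2-DMb1, H2-DMa, H2-Oa, H2-Ab1 and Ciita r was 0.88, 0.84, 0.80, 0.80 and 0.78, and rho was 0.95, 0.77, 0.71, 0.77 and 0.82. Adjusted over the 17 genes compared with Cd74, the permutation p of r was between 8.5e-05 and 0.0138 for these 9 members, and that of rho between 0.00017 and 0.0331. The smallest unadjusted value, 1e-05, is the smallest that 100000 permutations can give. Without the 2 libraries farthest from the Cd74 median, r was 0.95 and 0.96 for H2-DMb2 and H2-Ob, but 0.53 for H2-Ab1 and 0.51 for Ciita. With the genotype means removed, r ran from 0.76 to 0.97 for the 9 members.

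Ratios within a library take out what all members share. None of 7 ratios of read counts differed between the genotypes by two-sided exact permutation tests, whose smallest possible p is 0.00794, with adjusted p between 0.878 and 0.984. H2-Eb1 over H2-Ab1 was 0.867, 0.886, 0.957, 0.940 and 0.629 in NPYtet replicates 1 to 5 and 0.858, 0.652, 0.883, 0.903 and 0.866 in WT replicates 1 to 5. The libraries apart are NPYtet replicate 5 and WT replicate 2, those with the fewest genes detected, and the other 8 lay between 0.858 and 0.957. H2-Ob over H2-DMa was 0.0749, 0.0716, 0.0721, 0.0743 and 0.0226 in NPYtet and 0.0917, 0.0257, 0.0698, 0.0792 and 0.0510 in WT, with the same 2 libraries lowest. H2-Ab1 over H2-Aa was 1.93 in WT replicate 2 and 0.865 to 1.16 in the others. Ciita over Cd74 was 0.0391 in WT replicate 2 and 0.0124 to 0.0226 in the others. The part of the number of genes detected or the mitochondrial share in these ratios was not tested.

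**Figure D4:**
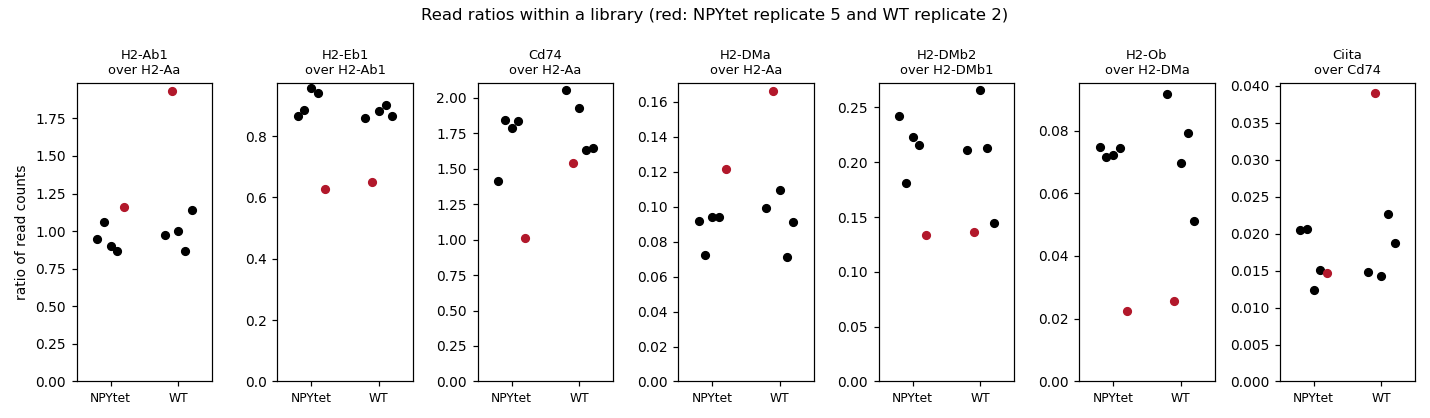
The 7 ratios of read counts between class II members in each library, NPYtet left of WT, each point 1 library. NPYtet replicate 5 and WT replicate 2 (red) lie apart for H2-Eb1 over H2-Ab1, at 0.629 and 0.652, and for H2-Ob over H2-DMa, at 0.0226 and 0.0257.

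The sexes as labelled differed for H2-Ob. It was lower in males, at 1.81 ± 0.60 CPM (SD, n = 5), than in females, at 5.55 ± 1.63 CPM (SD, n = 5), and the sexes as labelled did not overlap. The highest value, 7.70 CPM, is that of NPYtet replicate 1, which is labelled female but whose reads go against that label, so the direction rests on labels of which 1 is in doubt. No fit with that label turned was made. Without that library, females were at 3.41 to 6.21 CPM, above the 1.13 to 2.49 CPM of males. The log2 fold change (male minus female) was -1.56 (SE 0.38, 95% interval -2.38 to -0.74, edgeR adjusted p = 0.0482). It was 1 of 10 members past the threshold, where 2.48% of all genes passed, and 1 of 10 without overlap and lower in males, as 5.38% of all genes were. The call was kept without WT replicate 1 (adjusted p = 0.0383) and without WT replicate 4 (0.0310). It was lost without any other library, at adjusted p of 0.0795, 0.203 and 0.0539 without WT replicates 2, 3 and 5, and 0.0762, 0.0749, 0.115, 0.102 and 0.0518 without NPYtet replicates 1 to 5. The fold change itself ran from -1.74 to -1.40 with single libraries left out. Without NPYtet replicates 1 and 5 and WT replicate 2 together it was -1.52 (adjusted p = 0.0617).

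Other members were below the threshold for sex. Cd74 averaged 636 ± 240 CPM in males and 1332 ± 352 CPM in females, at -1.01 (SE 0.36, edgeR adjusted p = 0.119). H2-DMb2 averaged 5.57 ± 1.84 CPM in males and 12.5 ± 4.41 CPM in females, at -1.13 (SE 0.37, adjusted p = 0.101, and 0.0470 in DESeq2). The remaining 7 had log2 fold changes of -0.68 (H2-Oa) to -0.27 (H2-Ab1). Of 10 members, 0 had a value above 0, beside 46.2% of all genes, and 3 had an unadjusted p under 0.05, beside 11.5% of all genes that were lower in males at that p. The median was -0.61 over the members and -0.07 over all genes. Both libraries with few genes detected are labelled male, and NPYtet replicate 1, high in most members, is the library whose reads go against its label of female. The part of these libraries beyond the values without them was not tested. The count of all genes called between the sexes ran from 58 to 2725 with single libraries left out.

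No dependence of the genotype difference on labelled sex was detectable at this precision. The difference between the genotype log2 fold change in males and that in females ran from -0.80 (Ciita, SE 0.74) to 0.86 (H2-Oa, SE 1.21), with an edgeR adjusted p of 0.9999 for each member. Across all genes 0 were called by edgeR (0.00%), 294 had an unadjusted p under 0.05 (1.63%) and DESeq2 called 3. For Ciita the genotype value was -0.33 (SE 0.53) in males and 0.46 (SE 0.53) in females, as labelled. The females include NPYtet replicate 1, whose reads go against its label. It had 32.4 CPM of Ciita, beside 19.2 and 18.1 CPM in NPYtet replicates 3 and 4 and 11.4 and 22.4 CPM in WT replicates 1 and 3.

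The genes around the class II pathway were given by lists, and none of their members was called between the genotypes. The promoter factors of class II, which carry CIITA, had 2 of 7 log2 fold changes above 0, with a median of -0.21. Rfxank, a subunit of RFX, was at 8.69 ± 1.56 CPM in NPYtet and 10.9 ± 3.20 CPM in WT, at -0.31 (SE 0.32). The genes that cut antigen and the invariant chain had 5 of 7 above 0 (median 0.14). Ctss, the cathepsin that trims the invariant chain, was at 109 ± 18.2 CPM in NPYtet and 82.3 ± 42.0 CPM in WT, at 0.35 (SE 0.32), and Sppl2a, which cleaves its remaining fragment, was at 0.34 (SE 0.31). March1, a ubiquitin ligase that removes class II from the surface, was at 0.41 (SE 0.33) by genotype. Between the sexes as labelled, March1 fell by 1.58 on the log2 scale in males (SE 0.33, edgeR adjusted p = 0.0280). Without NPYtet replicate 1, the library in doubt, it fell by 1.63 (adjusted p = 0.0285). The call was lost without WT replicates 3 and 5 (adjusted p = 0.132 and 0.0584) and without NPYtet replicates 3 and 4 (0.0777 and 0.0856).

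Interferon gamma, the inducer of Ciita, was barely detected: Ifng was at most at 0.271 CPM in any library and was not tested. Of its receptor and signalling genes, 5 of 7 tested had log2 fold changes above 0 (median 0.17), among them Jak1 at 0.41 (SE 0.30). Of 9 targets tested, 8 were above 0 (median 0.31), with Cxcl9, a T cell chemokine, at 0.65 (SE 0.48) and Iigp1, a GTPase, at 0.47 (SE 0.34).

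The class I pathway, which presents peptides from within the cell, had 10 of 13 log2 fold changes above 0 and a median of 0.07, beside 0.34 for class II. B2m, the light chain of class I, was at 0.98 (SE 0.45, edgeR unadjusted p = 0.0457, adjusted p = 0.9995), with 5293 CPM in NPYtet replicate 5, 1002 to 1603 CPM in the other 4 NPYtet libraries and 706 to 1467 CPM in WT. Without single libraries the B2m value ran from 0.23 to 1.35, and without NPYtet replicates 1 and 5 and WT replicate 2 it was 0.26. H2-K1, a class I heavy chain, was at 1648 ± 175 CPM in NPYtet and 1859 ± 1054 CPM in WT, at -0.02 (SE 0.41). CD74 signalling partners had 3 of 5 above 0 (median 0.07). Costimulation genes had 4 of 6 above 0, with a median of 0.46, which is above that of class II. They include Cd86 at 0.51 (SE 0.38) and Icosl at -0.49 (SE 0.33).

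Of 6 marker genes of immune cells compared with Cd74 across libraries, 3 passed the adjusted test of r. Against Cd74, r was 0.85 for Cd209a (dermal dendritic cells), 0.75 for Adgre1 (macrophages), 0.72 for Cd207 (Langerhans cells) and 0.65 for Cd3e (T cells). Their rho was 0.88, 0.87, 0.89 and 0.71. Adjusted permutation p of r was 0.00459, 0.0192, 0.0192 and 0.0530, and that of rho was 0.00431, 0.0051, 0.00408 and 0.0331. Without the 2 farthest libraries their r was 0.79, 0.74, 0.85 and 0.78. Ptprc (CD45, all leukocytes) had an r of 0.57 and a rho of 0.56, and Cd79a (B cells) 0.56 and 0.36, with adjusted permutation p of 0.0990 for both r values. Without the 2 farthest libraries they were 0.74 and 0.11. Lef1, of growing hair follicles, had an r of -0.74 and a rho of -0.79 (adjusted permutation p = 0.0192 and 0.0158), and its r was -0.47 without the 2 farthest libraries.

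**Figure D5:**
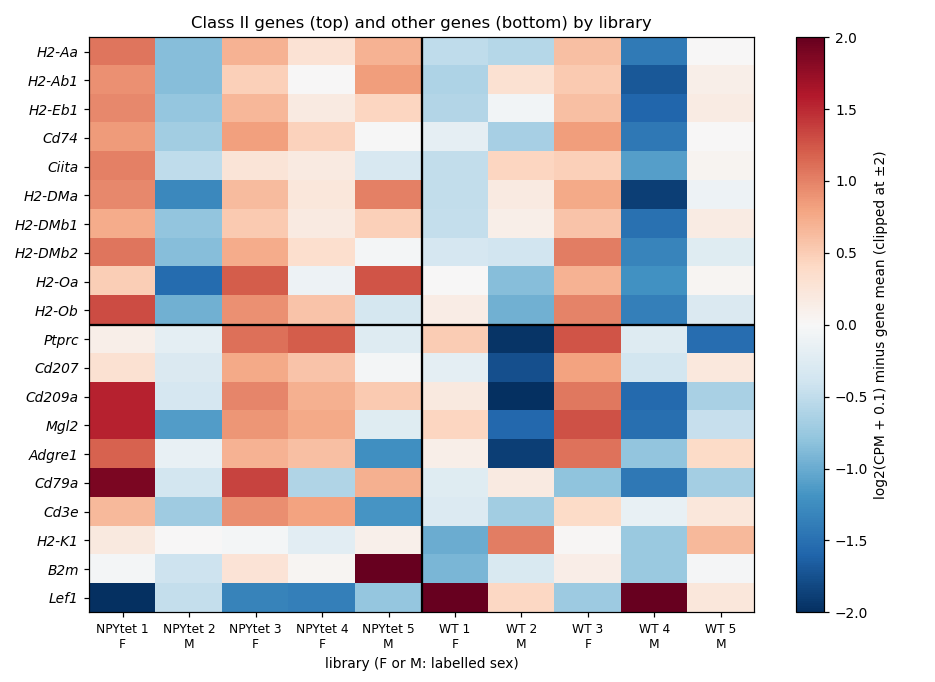
log2(CPM + 0.1) of the class II members (above the line) and of marker and pathway genes (below it), as the difference from each gene's mean over 10 libraries, NPYtet left of WT. The members share a pattern with NPYtet replicate 1 high and WT replicate 4 low, and Lef1 is high in WT replicates 1 and 4.

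By genotype, 11 of 12 dendritic cell markers had log2 fold changes above 0, beside 48.8% of all genes. Their summed CPM ran from 161 to 572 in NPYtet and from 102 to 454 in WT. Cd209a was at 57.8 ± 25.6 CPM in NPYtet and 28.9 ± 25.2 CPM in WT, at 0.98 (SE 0.38, edgeR unadjusted p = 0.0227, adjusted p = 0.9995), the highest value of the 12, whose median was 0.19. Macrophage markers had 9 of 11 above 0, with sums of 1123 to 1712 CPM in NPYtet and 491 to 1686 CPM in WT. B cell markers had 8 of 8 tested above 0 (median 0.82), with sums of 6.14 to 22.5 CPM in NPYtet and 4.82 to 13.3 CPM in WT. Plasma cell markers had 4 of 6 above 0 (range -0.84 to 2.74), with sums of 36.8 to 216 CPM in NPYtet and 26.5 to 98.6 CPM in WT. Of these 6, 3 (Jchain, Ighm and Igha) were higher at an unadjusted edgeR p under 0.05, beside 3.59% of all genes in either direction. The edgeR adjusted p of each was 0.9995. Langerhans cell markers had 2 of 3 above 0 and T cell markers 7 of 10. Of 5 lymph node stroma markers, Cxcl13 was at most at 8.19 CPM and Ccl19 at most at 4.12 CPM, with log2 fold changes of 0.71 and 0.085, while Glycam1, Madcam1 and Ccl21a were at most at 0.509 CPM in any library. Positive values were not particular to immune cells. Adipocyte markers had 6 of 6 above 0 (median 0.81), fibroblast markers 5 of 5 (0.67) and endothelial markers 3 of 3 (0.31). Keratinocyte markers had 0 of 4 (median -0.12), skeletal muscle markers 2 of 5 (-0.08) and melanocyte markers 0 of 5 (-3.6). Growing hair follicle markers had 0 of 11 above 0, with a median of -4.57 and sums of 24.4 to 10328 CPM in NPYtet and 296 to 23720 CPM in WT. With a score of these hair genes as a covariate, 7 of 10 members were above 0 and their median was 0.029. That score was mostly lower in NPYtet, at -6.44 to 2.54, than in WT, at -2.02 to 3.89. The fit therefore cannot fully separate the score from the genotype. The part of these cells in the members' levels was not tested further.

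Some leukocyte markers, named after their values were seen, were lower in labelled males as H2-Ob was, and others were not. Ptprc fell by 1.56 on the log2 scale in males (SE 0.38, edgeR adjusted p = 0.0455), Mgl2, a lectin of dermal dendritic cells, by 1.86 (SE 0.34, adjusted p = 0.0149) and Irf4, a transcription factor of the same cells, by 1.83 (SE 0.37, adjusted p = 0.0231). Without NPYtet replicate 1, the library whose label is in doubt, they fell by 1.68, 1.71 and 1.77 (adjusted p = 0.0273, 0.0214 and 0.0286). The Mgl2 call was lost without WT replicate 3 (adjusted p = 0.0879), and that of Irf4 without WT replicate 3 and NPYtet replicates 3 and 4 (0.129, 0.0565 and 0.0638). That of Ptprc was kept without WT replicates 1 and 4 and NPYtet replicate 1, and lost without each of the other 7 libraries, at adjusted p of 0.0516 to 0.190. Of 12 dendritic cell markers, 1 was above 0, beside 46.2% of all genes, and 3 were called, beside 2.48% of all genes. The third was Ccr7, higher in males by 2.34 (SE 0.57, adjusted p = 0.0457), a call kept without WT replicate 4 and NPYtet replicates 1 and 5 and lost without each of the other 7, at 0.0764 to 0.160. Of 11 macrophage markers, 5 were above 0, the median was -0.0096 and 1 was called. Markers of lymphocytes were mostly lower in labelled males too. Of 8 B cell markers tested, 1 was above 0, the median was -0.97 and 1 was called. Plasma cell markers had 1 of 6 above 0, a median of -1.49 and 1 call. T cell markers had 2 of 10 above 0, a median of -0.66 and 0 calls. Cxcr2, a chemokine receptor of neutrophils, was higher in males by 5.08 (SE 0.92, adjusted p = 0.0174). It was at 35.6 CPM in NPYtet replicate 2, at 0.66 to 9.83 CPM in the other labelled males and at 0.11 to 0.52 CPM in labelled females. Its values with single libraries left out are not given here. Whether H2-Ob differs beyond these markers was not tested.

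Outside the list, the genes most like the mean of Cd74, H2-Aa, H2-Ab1 and H2-Eb1 over the 10 libraries were Clec3b (r = 0.97), Tspan32 (0.96), Sash3 (0.96), Hvcn1 (0.95), Gstt1 (0.95), Gm11963 (0.94), Gata6 (0.94), H2-T-ps (0.94), P4htm (0.93) and Fxyd2 (0.93). They were taken from 15162 genes of at least 1 CPM on average, whose median r was -0.003 and of which 31 had r above 0.9. Clec3b encodes a secreted plasminogen-binding lectin, and Sash3 and Hvcn1 are known for their expression in lymphocytes. Clec3b averaged 336 CPM in NPYtet and 237 CPM in WT, and the other 9 genes averaged 0.763 to 23.5 CPM. Gata6 had a rho of 0.71 beside its r of 0.94.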

How the data were processed

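Poly(A) RNA of whole skin was measured in 10 mice, with groups, replicate numbers and sex taken from the labels. The values are raw counts of reads, unscaled, for each Ensembl ID as deposited by the authors. Per the submitters' processing notes they were made with bcl2fastq, FastQC 0.11.8, Trimmomatic 0.36 and STAR 2.5.2 on mm10, and DESeq2 1.30.1 is also named. Per the labels' protocols the kit was directional and reads were paired, of 75 bases. The annotation release and strand column are not known from these sources.

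GENCODE M21 matched 49412 of 49671 IDs, and the other 259 took 0.0189% of reads. Counts were fitted in R 4.3.3 with edgeR 4.0.16 (filterByExpr with minimum count 10 and minimum total 15, TMM, robust quasi-likelihood test, sex and genotype as terms, Benjamini-Hochberg adjustment over 18060 genes, threshold 0.05). Standard errors and 95% intervals come from the F statistic and its degrees of freedom. The sex term uses every label as given. A model of genotype and sex combinations gave the genotype-by-sex difference. Log2 CPM adds a prior count of 2, and ratios add 0.5 reads before the log. Correlations used 100000 permutations. DESeq2 1.42.0 and limma 3.58.1 were alternatives, and the fit was tested on simulated data.

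The members, the pathway and marker lists and the tests were chosen with earlier results of these data known. Genes were named as members, as up to 3 genes of smallest genotype p per pathway list (of which some are printed), as 1 defining gene per cell type, or by likeness. H2-K1, Mgl2, Irf4, Ccr7, Glycam1, Madcam1, Ccl21a, Cxcl13, Ccl19, Jchain, Ighm and Igha were added from the lists after their values were seen, beside the result they touch. Of 174 list names, 1 did not match. A chi-square comparison found no libraries of a group within sampling noise. The titles number each library separately. A count of 0 allows up to 3 reads, for counting error only. 1 gene of the lists is not reported here.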

Additional observations from a re-analysis of the deposited data

Results flagged for a closer look

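In 34 groups of 5 libraries, each member's log2 CPM and each log2 ratio was searched for a library whose gap to its nearest neighbour exceeded 0.71 of the group's range (Dixon's 95% value for 5 samples), and 3 were found. Chance gives about 1 in 20 groups. For H2-Eb1 over H2-Ab1, NPYtet replicate 5 was the low library of its group, with a gap of 0.765 of the range, and WT replicate 2 was the low library of its group, with a gap of 0.844. For H2-Ob over H2-DMa, NPYtet replicate 5 was the low library, with a gap of 0.969. These are the 2 libraries with the fewest genes with a read.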

How the results depend on the processing

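Genotype calls over all genes were 1 in the fit reported, 35 with DESeq2, 2 with limma voom, 409 with no filter on low counts, 0 without NPYtet replicates 1 and 5 and WT replicate 2 together, and 1 to 8 with each library left out (8 without WT replicate 3). No alternative run called a member by genotype. The cause of the differing counts was not tested. Sex calls were 448, 2316 with DESeq2, 949 without the 3 libraries and 58 to 2725 with each library left out. Genotype-by-sex calls were 0 and 3 with DESeq2.

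Under voom, 1 of 10 members was above 0 and the median was -0.070, with H2-Ab1 at -0.099, H2-Eb1 at -0.024, H2-DMa at -0.14, H2-DMb1 at -0.065, H2-DMb2 at -0.16, H2-Oa at -0.26, H2-Ob at -0.076, Cd74 at -0.037 and Ciita at -0.038. With the hair follicle score as a covariate, H2-DMb2 was -0.18, H2-Ob -0.10, Ciita -0.54 and H2-Eb2 -0.92. Without the 3 libraries, H2-DMa was -0.091, H2-DMb2 -0.020 and H2-Oa -0.17. The cause was not tested. With each library left out, values ran from -0.066 to 0.82 for H2-DMa (below 0 without NPYtet replicate 5), from -0.0067 to 0.52 for H2-DMb2 (below 0 without WT replicate 1), from -0.17 to 0.94 for H2-Oa (below 0 without NPYtet replicate 5), from -0.19 to 0.25 for Ciita (below 0 without WT replicates 1 and 4 and NPYtet replicate 1) and from -0.35 to 0.77 for H2-Eb2 (below 0 without NPYtet replicate 2). The log2 ratio differences ran from -0.052 to 0.14 for H2-Eb1 over H2-Ab1, from -0.28 to 0.028 for H2-DMa over H2-Aa, from -0.066 to 0.19 for H2-DMb2 over H2-DMb1 and from -0.30 to 0.33 for H2-Ob over H2-DMa.

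Replicate numbers did not pair the libraries, since same-numbered correlations ran from -0.26 to 0.64 and 1 of 5 NPYtet libraries correlated best with its own number. With a replicate block in place of the sex term there was 1 call, 10 of 10 members were above 0 and their median was 0.58. Other scaling left the median between 0.26 and 0.36. H2-Oa and H2-Eb2 gave no value under the stricter filter. Depth limits H2-Oa, at 6 to 80 reads per library, and H2-Eb2, at 0 to 33. Alternatives for the sex differences of March1, Ptprc, Mgl2, Irf4 and Ccr7 were chosen after seeing the data and turned none of them.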
